A study of Mus musculus with 2 samples.

Results

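The respiratory chain genes described here are the protein-coding nuclear genes of the mouse whose symbol begins with Nduf, Sdh (a to d), Uqcr, Cox4 to Cox8 or Atp5 in the annotation of the mm9 genome. There were 91 such genes among 22225 nuclear protein-coding genes. They comprised 38 subunits and 4 assembly factors of complex I, 4 genes of complex II, 8 of complex III, 19 of complex IV and 18 of complex V. Grouping follows the symbol, although Ndufa4 is now known as a subunit of complex IV, and Cox4nb, Atp5s and Atp5sl (now Emc8, Dmac2l and Dmac2) are not counted as subunits today. The 13 protein-coding genes of the mitochondrial genome are not among them.

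The respiratory chain of the inner mitochondrial membrane passes electrons from NADH (complex I) and succinate (complex II) through complex III to oxygen at complex IV, and the proton gradient so built drives ATP synthesis by complex V. Most subunits are encoded in the nucleus, made in the cytosol and imported, and are assembled together with the few subunits that the mitochondrial genome encodes. Their promoters serve nearly all cells and are known for CpG-rich sequence without a TATA box and for sites of NRF1, GABP, YY1 and SP1. Several subunits of complex IV have a second isoform made mainly in muscle, lung or testis. In the intestinal epithelium oxidative phosphorylation supports stem cells and the energy needs of absorption.

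Open chromatin was mapped by ATAC-seq, where a transposase cuts accessible DNA, in enteroids grown from ileal crypts of C57Bl6/129sv mice aged 4 months. Control enteroids were Taf4 lox/lox and carried the label WT. Taf4-inactivated enteroids were Taf4 lox/lox::VilCreERT2 with the label KO, and both received 1 µM 4-OHT for 3 days, so floxed alleles and drug were common to both and the Cre was not. The Villin promoter restricts the Cre recombinase, which 4-OHT activates, to intestinal epithelial cells, and Taf4 is a component of TFIID, the general factor that binds core promoters. There was 1 library per genotype, and the number of animals behind it was not given in the sources used here. No replicate error exists, so every difference given here is one between these 2 libraries, with no test.

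The control list held 90445 broad peaks with a median width of 584 bp, and the Taf4-inactivated list 71282 peaks with a median width of 530 bp. The depth of the Taf4-inactivated library, estimated from the background under its peaks, was 60.6% of that of the control library. Folds are enrichments over the background of each library and share no common scale, so each peak is given by its percentile of fold within its own list, where 100 is the strongest peak. Of 8 epithelial markers, 7 had a start site peak in control and all 8 after Taf4 inactivation. Of 4 leukocyte markers 1 (Itgam) had one in each list, and of 4 mesenchymal markers 3 (Col1a1, Col1a2 and Pdgfra) did. Of 3 endothelial markers Kdr had one in both lists, at percentile 93.1 in control and 35.9 after Taf4 inactivation, Pecam1 in control alone and Cdh5 in neither. A peak at a start does not show that the gene is expressed, and the part of other cell types in the values below was not tested. The start site peak of the targeted gene, annotated as Taf4a, had percentiles of 74.7 (control) and 58.7 (Taf4-inactivated), which does not report whether the floxed exons were deleted.

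The promoters themselves are shown first, as the 150 bases that end just before the annotated start, read 5′ to 3′ on the strand of the gene from the mm9 reference. Capitals mark matches to the short motifs spelled out further on. The first 5 come from a fixed panel of 20 members. Among those whose stretch overlapped no annotated coding gene exon they held the most kinds of motif, each 2 kinds within 250 bases before to 50 bases after the start, of which some lie past the stretch shown. Sdha, Sdhc and Sdhd, which held at least as many kinds, are left out because of that overlap.
Atp5b, chr10:127520179-127520328, plus strand: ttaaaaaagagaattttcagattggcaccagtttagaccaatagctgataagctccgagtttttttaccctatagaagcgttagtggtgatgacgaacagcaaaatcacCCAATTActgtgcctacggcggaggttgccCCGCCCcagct
Atp5o, chr16:91931933-91932082, minus strand: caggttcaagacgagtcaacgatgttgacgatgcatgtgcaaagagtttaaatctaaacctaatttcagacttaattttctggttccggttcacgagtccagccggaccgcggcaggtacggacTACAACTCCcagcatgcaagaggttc
Cox5a, chr9:57368889-57369038, plus strand: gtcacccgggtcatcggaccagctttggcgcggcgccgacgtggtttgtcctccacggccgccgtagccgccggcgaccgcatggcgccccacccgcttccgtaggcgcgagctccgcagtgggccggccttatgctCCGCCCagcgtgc
Ndufb8, chr19:44629931-44630080, minus strand: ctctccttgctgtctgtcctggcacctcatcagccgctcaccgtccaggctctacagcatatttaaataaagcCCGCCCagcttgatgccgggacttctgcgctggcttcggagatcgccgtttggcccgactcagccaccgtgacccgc
Sdhb, chr4:140516968-140517117, plus strand: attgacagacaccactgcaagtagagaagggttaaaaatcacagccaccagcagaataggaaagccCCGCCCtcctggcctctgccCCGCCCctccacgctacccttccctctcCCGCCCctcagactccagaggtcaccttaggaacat

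The isoforms of restricted tissue expression are shown for contrast, because most of them had no peak. Cox6b2 is not among them, since its stretch overlapped an annotated exon.
Cox4i2, chr2:152579759-152579908, plus strand: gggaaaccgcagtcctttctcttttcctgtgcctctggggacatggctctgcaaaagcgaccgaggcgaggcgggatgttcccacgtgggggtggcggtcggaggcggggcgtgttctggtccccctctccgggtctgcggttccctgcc
Cox6a2, chr7:135349881-135350030, minus strand: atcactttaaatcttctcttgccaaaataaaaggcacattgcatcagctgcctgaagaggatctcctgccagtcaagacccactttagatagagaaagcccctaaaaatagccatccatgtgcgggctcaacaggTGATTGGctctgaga
Cox7a1, chr7:30969040-30969189, plus strand: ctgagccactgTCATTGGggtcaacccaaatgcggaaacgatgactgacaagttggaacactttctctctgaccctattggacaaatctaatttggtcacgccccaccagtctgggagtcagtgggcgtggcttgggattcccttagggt
Cox7b2, chr5:71939445-71939594, minus strand: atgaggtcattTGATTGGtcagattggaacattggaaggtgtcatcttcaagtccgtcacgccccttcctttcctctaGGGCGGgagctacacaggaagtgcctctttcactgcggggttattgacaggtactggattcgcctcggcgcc
Cox8b, chr7:148086346-148086495, minus strand: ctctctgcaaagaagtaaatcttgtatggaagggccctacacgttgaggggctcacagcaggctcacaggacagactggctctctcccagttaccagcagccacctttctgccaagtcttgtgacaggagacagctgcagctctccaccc
Cox8c, chr12:104137366-104137515, plus strand: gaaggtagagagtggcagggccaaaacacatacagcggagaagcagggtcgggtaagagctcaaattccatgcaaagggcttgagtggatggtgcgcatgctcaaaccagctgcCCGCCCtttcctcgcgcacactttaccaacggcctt
Ndufa4l2, chr10:126951845-126951994, plus strand: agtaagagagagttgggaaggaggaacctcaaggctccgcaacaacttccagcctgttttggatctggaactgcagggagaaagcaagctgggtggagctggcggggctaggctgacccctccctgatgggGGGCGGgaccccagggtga

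The last 3 belong to the members whose peaks ranked higher after Taf4 inactivation by the widest margins. They were chosen after their values had been seen.
Atp5d, chr10:79604052-79604201, plus strand: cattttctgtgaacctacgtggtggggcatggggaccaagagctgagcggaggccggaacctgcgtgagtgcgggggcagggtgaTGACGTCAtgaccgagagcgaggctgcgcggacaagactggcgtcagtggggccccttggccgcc
Ndufs7, chr10:79711716-79711865, plus strand: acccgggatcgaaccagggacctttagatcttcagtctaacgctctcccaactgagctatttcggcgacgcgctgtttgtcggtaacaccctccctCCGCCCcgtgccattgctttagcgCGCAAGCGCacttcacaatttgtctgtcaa
Cox6b1, chr7:31411171-31411320, minus strand: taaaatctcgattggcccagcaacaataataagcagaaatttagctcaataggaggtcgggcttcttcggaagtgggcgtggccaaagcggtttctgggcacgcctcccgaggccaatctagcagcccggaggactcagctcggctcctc
The Atp5d stretch holds a complete cyclic AMP response element, the Ndufs7 stretch an NRF1 and an SP1 match, and the Cox6b1 stretch none of the motifs searched.

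A peak within 1 kb of an annotated start site was found for 84 of the 91 genes (92.3%) in control and for 84 (92.3%) in Taf4-inactivated enteroids. Over all nuclear coding genes the shares were 68.5% in control and 65.7% in Taf4-inactivated enteroids. In both lists 83 members had a peak, 6 had none in either, and each list alone added 1. Every one of the 83 pairs of peaks overlapped between the lists, with a median of 771 shared bases. Only Cox7b had its peak in control alone, where 5.69% of all coding genes were of that kind, and only Cox4i2 in Taf4-inactivated enteroids alone, where 2.88% were. A count of 1 among 91 genes lies under both of these background shares.

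Most of the absent peaks belonged to isoforms of restricted tissue expression. Peaks were present for 37 of 38 complex I subunits, all 4 complex I assembly factors, all 4 complex II genes, all 8 complex III genes and 17 of 18 complex V genes in each list. Complex IV had peaks for 14 of 19 genes in each list. Of the 8 isoforms of restricted tissue expression, 2 had a peak in control and 3 in Taf4-inactivated enteroids. Of the 83 other members, 82 had one in control and 81 after Taf4 inactivation. The 1 member outside the restricted isoforms with no peak in either list was Atp5l-ps1, which carries the symbol of a pseudogene although it is annotated as coding, and its nearest peaks lay 11817 bp away in control and 11826 bp away in Taf4-inactivated enteroids.

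Cox7a1, the muscle isoform of subunit 7a, was the exception among restricted isoforms. Its peak stood at percentile 91.2 in control and at 92.0 after Taf4 inactivation, near the median of the members. Cox6b2, the testis isoform of subunit 6b, stood at 37.6 in control and 2.75 in Taf4-inactivated enteroids. Cox4i2, the lung and low-oxygen isoform of subunit 4, had a peak of percentile 6.0 after Taf4 inactivation only, among the weakest of the list, and its nearest control peak lay 2705 bp from the start. The -log10 q of the Cox4i2 peak was 1.31, under the stricter threshold of 2 tried as an alternative.

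The members without a peak differed in how near they came to the limit of 1 kb. Cox8b, the heart and muscle isoform of subunit 8, had a control peak 1077 bp from its start, just outside the limit, and its nearest Taf4-inactivated peak was 2788 bp away. Ndufa4l2, induced by low oxygen, had peaks at 1924 bp in control and 1730 bp after Taf4 inactivation. The muscle isoform Cox6a2 and the testis isoforms Cox8c and Cox7b2 had none within 5 kb in either list, the closest being a control peak 5950 bp from Cox6a2. An uncalled peak does not show closed chromatin.

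Cox7b, an X-linked subunit of complex IV made in most tissues, was the only broadly used member to be called in control alone. Its control peak, chrX:103210826-103211333, was 508 bp wide with a fold of 2.05 at percentile 53.6, and the nearest Taf4-inactivated peak lay 3565 bp away. The -log10 q of this control peak was 1.75, under the stricter threshold of 2 tried as an alternative. The Taf4-inactivated library was the shallower one, and the part of depth in this absence was not tested. Of 927 coding genes on the X chromosome, 5.61% had a peak in control only, against 5.70% of the autosomal ones.

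**Figure D1:**
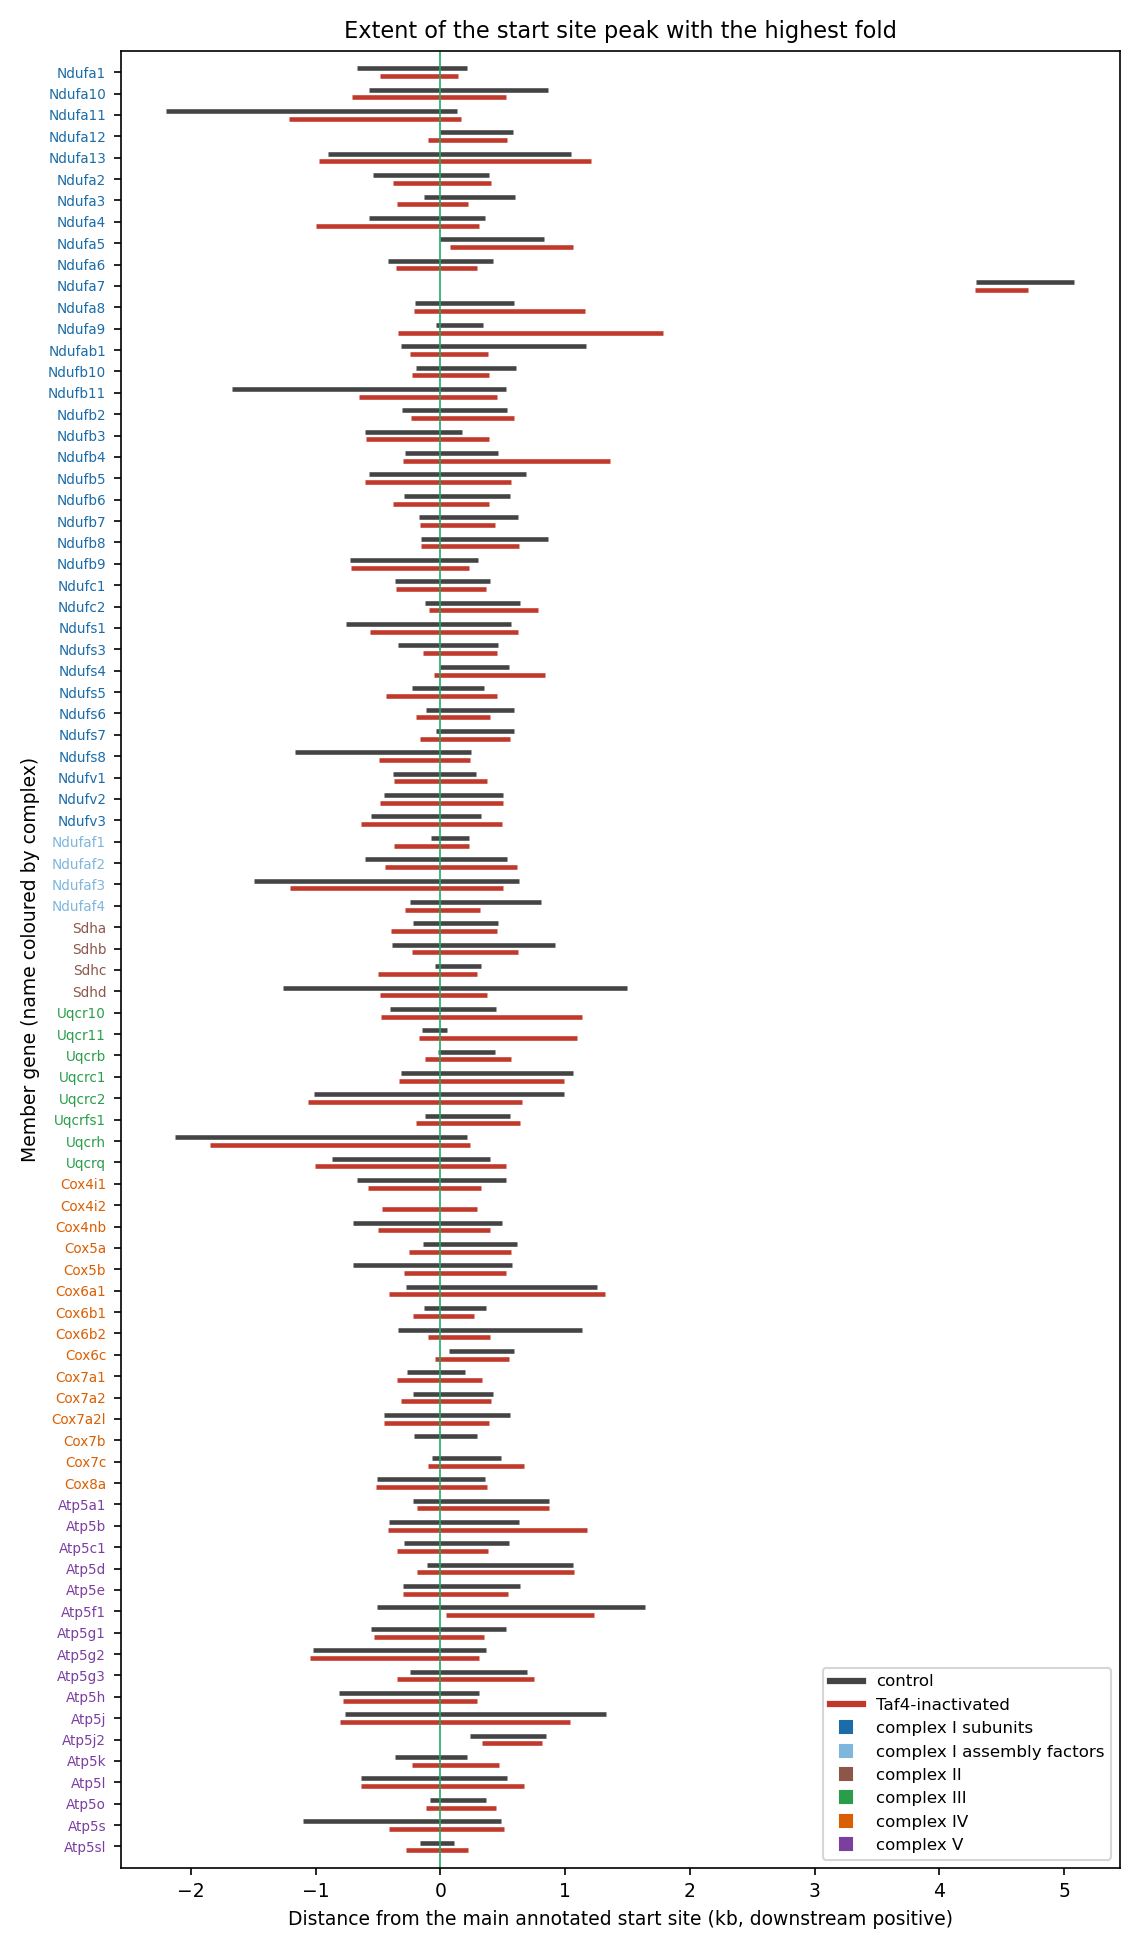
Horizontal bars give the extent of the strongest start site peak of 84 of the 85 members with a peak, in kb from the main annotated start (vertical line), in control (dark) and Taf4-inactivated (red) enteroids, with gene names coloured by complex. Nearly all bars cross the start in both lists, Ndufa7 lies over 4 kb downstream at another annotated start, and Cox7b and Cox4i2 have 1 bar each.

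Peaks of respiratory genes were centred slightly downstream of the start. They reached a median of 329 bp upstream and 532 bp downstream in control, and 356.5 bp upstream and 479 bp downstream in Taf4-inactivated enteroids, as the plot of peak extents shows. The main start site was covered in 81 of 84 control peaks and in 80 of 84 Taf4-inactivated peaks. In Ndufa7 the strongest peak lay at an alternative start. Another coding start fell within 26 control peaks and 28 Taf4-inactivated peaks.

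Shared promoters were common. The start of 28 members (30.8%) lay within 1 kb of a coding start on the opposite strand, against 10.3% of all coding genes, and all 28 had a peak in both lists. A peak at such a start belongs to both genes. Cox4i1, the common isoform of subunit 4, and Cox4nb, a gene of the endoplasmic reticulum membrane complex that bears an old Cox4 name (now Emc8), shared 1 peak between starts 178 bp apart. Ndufs1, the largest iron-sulfur subunit of complex I, started 3 bp from the translation elongation factor gene Eef1b2, and Sdhd, a membrane anchor of complex II, 52 bp from the import chaperone gene Timm8b. Atp5j, coupling factor 6 of complex V, shared its peak with Gabpa, which encodes a regulator of respiratory genes and starts 700 bp away.

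Members ranked high in both lists. The median percentile was 90.04 in control and 88.2 in Taf4-inactivated enteroids, and 86.5 and 81.5 over all coding genes with a peak. In the strongest 10% of the list stood 51.2% of the members with a peak in control and 44.0% in Taf4-inactivated enteroids, against 41.8% and 32.1% of all coding genes with a peak. Over the 83 pairs the median difference, Taf4-inactivated minus control, was -0.11 points, with 40 members higher and 43 lower. Over all 13966 coding genes with a peak in both lists it was -2.77 points, and 65.8% were lower, against 51.8% of the members. The Spearman rho of percentile between the lists was 0.581 over 83 members and 0.810 over all coding genes, given as descriptions of values that share their 2 libraries. The members spanned a narrower range, with control quartiles of 80.2 and 94.3 against 62.4 and 94.9 over all coding genes with a peak. A narrower range can by itself lower a rank correlation, so the 2 values do not show that the members were reordered more.

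**Figure D2:**
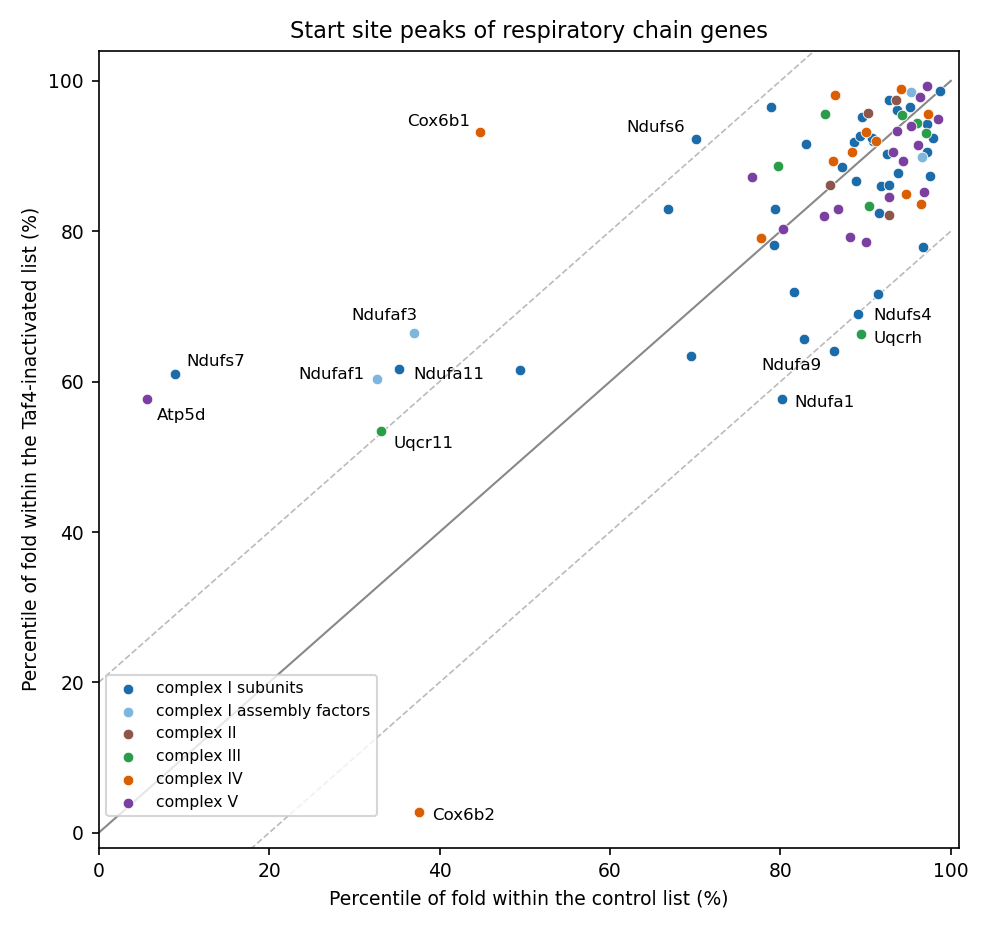
Each point is 1 of the 83 members with a start site peak in both lists, placed by its percentile of fold within the control list (x axis, %) and within the Taf4-inactivated list (y axis, %) and coloured by complex; the solid line marks equal percentiles and the dashed lines a difference of 20 points. Most points crowd at the upper right, 8 lie at or above the upper dashed line and 5 at or below the lower one.

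A difference of at least 20 points was taken as a rank change by a fixed rule of size. By this rule 8 members ranked higher after Taf4 inactivation, or 8 of 83 against a background of 7.86%, and 5 ranked lower, against a background of 12.3%. The higher count is near its background, and the lower one is below it. The room to rise was not equal, however. The lower control quartile was 80.2 for the members and 62.4 over all coding genes with a peak. From 80.2 upward no rise of 20 points is possible. Over the 83 pairs the Spearman rho of the difference with the control percentile was -0.445. The higher count can therefore not be read against its background alone. In percentile of -log10 p, which at a given fold grows with the background, 72 of 83 members kept the sign of their difference, but only 2 were higher and 2 lower by 20 points on both measures. Over all coding genes 3.09% were higher and 10.3% lower on both measures, a rule added after the data had been seen.

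The 2 members that ranked higher on both measures were Cox6b1 and Ndufaf1. Cox6b1, the common isoform of the subunit 6b that joins complex IV monomers, stood at percentile 44.8 in control (chr7:31410805-31411300, fold 2.0) and 93.1 in Taf4-inactivated enteroids (chr7:31410897-31411391, fold 3.95). The 2 peaks were nearly of equal width, 496 and 495 bp, and the background under them was 1.24 and 1.42 times the lowest of each library. By -log10 p the difference was 40.4 points, close to the 48.4 points by fold. Ndufaf1, an assembly factor of the complex I membrane arm, stood at 32.7 in control and 60.3 in Taf4-inactivated enteroids, with a difference of 36.1 points by -log10 p. When ranked only among start site peaks it differed by 13.4 points, under the limit, while Cox6b1 differed by 54.0. The control peak of Ndufaf1 had a -log10 q of 1.38, under the stricter threshold of 2.

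The other 6 that ranked higher by fold did so by less than 20 points, or not at all, by -log10 p. Atp5d, the delta subunit of the central stalk of ATP synthase, went from percentile 5.66 (fold 1.77, chr10:79604092-79605263) to 57.7 (fold 2.56, chr10:79604017-79605276), a difference of 52.0 points by fold and 8.61 by -log10 p. Ndufs7, an iron-sulfur subunit near the quinone site of complex I, went from 9.01 to 60.9, with 18.2 points by -log10 p. Uqcr11, a small subunit of complex III, went from 33.2 to 53.4, and by -log10 p the sign turned to -4.12 points. Ndufaf3, Ndufa11 and Ndufs6 differed by 29.5, 26.5 and 22.2 points by fold and by 1.99, 0.46 and 13.6 points by -log10 p. For these genes the size of the difference thus depended on which value was ranked.

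The background under a peak was solved from the fold and -log10 p of that same peak, so it is not independent of either. At a given -log10 p, a higher background means a lower fold. In 12 members the control background was at least 2 times the lowest of the library, and 5 of these 12, Atp5d, Ndufs7, Uqcr11, Ndufaf3 and Ndufa11, ranked higher by 20 points. The median percentile of the 12 was 59.5 in control and 65.0 in Taf4-inactivated enteroids. Their median difference was 8.86 points by fold, with 11 of 12 above 0, and 0.89 points by -log10 p. As the 12 were chosen by their control background, a low control rank by fold was partly built in. The 71 other members had medians of 91.4 and 89.9, with median differences of -1.72 points by fold and -1.22 by -log10 p. By fold, 3 of these ranked higher and 5 lower. The part of the background in these ranks was not tested.

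Atp5d, Ndufs7 and Uqcr11 lie within 265 kb of each other on chromosome 10 (chr10:79604202-79869575), a stretch examined after their values had been seen. Of its 19 coding genes 18 had such a peak in each list, with a median percentile of 16.1 in control and 55.5 after Taf4 inactivation. The median difference was 12.2 points by fold and 0.40 points by -log10 p. Without the 3 respiratory genes, the 15 neighbours with a peak in each list had medians of 16.6 in control and 48.0 after Taf4 inactivation, with median differences of 10.4 points by fold and 0.34 by -log10 p.

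Among the 5 members that ranked lower, Cox6b2 and Ndufs4 did so on both measures. Cox6b2 differed by -34.9 points by fold and by -50.8 points by -log10 p, and its peak spanned 1473 bp in control but 502 bp after Taf4 inactivation. Its folds, 1.97 in both lists, were low in each. Ndufs4, an accessory subunit of the NADH-oxidising arm of complex I, stood at 89.2 in control and 69.0 in Taf4-inactivated enteroids, with -23.6 points by -log10 p. Uqcrh, the hinge protein of complex III, and the complex I subunits Ndufa1 and Ndufa9 differed by -23.2, -22.5 and -22.3 points by fold and by -9.53, -18.3 and -18.9 points by -log10 p. Ndufa1 is X-linked, as is Ndufb11, which differed by -1.10 points by fold. Coding genes on the X chromosome had a median difference of -5.94 points against -2.70 on the autosomes, and the part of X linkage was not tested.

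By complex, the medians lay close together except for the 4 assembly factors. Complex I subunits had a median percentile of 89.4 in control and 87.3 in Taf4-inactivated enteroids. Its flavin-bearing subunit gene Ndufv1 stood at 92.8 and 97.5 and its iron-sulfur partner Ndufv2, the top control member, at 98.8 and 98.7. Ndufs1 stood at 91.6 and 82.5, and Ndufb8, a membrane-arm subunit, at 81.6 and 72.0. The assembly factors split, with Ndufaf2 at 96.6 and 89.9 and Ndufaf4 at 95.3 and 98.5, while Ndufaf1 and Ndufaf3 were low in control.

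Complex II had medians of 91.5 in control and 90.9 after Taf4 inactivation. The flavoprotein Sdha stood at 93.6 and 97.4 and the iron-sulfur protein Sdhb at 85.8 and 86.1. Of the membrane anchors, Sdhc stood at 92.8 and 82.2 and Sdhd at 90.3 and 95.7. Complex III had medians of 89.96 and 90.9, and its core proteins Uqcrc1 (94.2 and 95.5) and Uqcrc2 (96.1 and 94.4) and the Rieske protein Uqcrfs1 (97.0 and 93.0) moved by under 5 points.

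Complex IV had medians of 87.4 in control and 89.9 in Taf4-inactivated enteroids, and 9 of its 13 pairs were higher by fold but 6 of 13 by -log10 p, so the direction depended on the value ranked. The peak shared by Cox4i1 and Cox4nb counts as 2 of these pairs, with 1.31 points by fold and -2.98 by -log10 p. Cox5a stood at 97.3 and 95.6, Cox5b at 86.1 and 89.3 and Cox4i1 at 77.8 and 79.1. Cox7c and Cox7a2, small subunits of complex IV, were among the 5 highest members after Taf4 inactivation, at 98.1 and 99.0, against 86.4 and 94.1 in control.

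Complex V had medians of 93.2 in control and 87.3 in Taf4-inactivated enteroids, and 13 of its 17 pairs (76.5%) were lower by fold and 11 (64.7%) by -log10 p. Over all coding genes 65.8% were lower by fold and 68.0% by -log10 p, and the median difference of complex V, -3.10 points, was near their -2.77. The catalytic beta subunit gene Atp5b stood at 96.1 and 91.5 and the alpha subunit gene Atp5a1 at 88.2 and 79.3. Atp5o, which joins the catalytic head to the side stalk, was higher, at 76.7 and 87.3. Of the genes of the proton-carrying c ring, which encode the same mature protein, Atp5g1 stood at 97.2 and 99.3, the highest Taf4-inactivated member, Atp5g2 at 96.8 and 85.3 and Atp5g3 at 94.4 and 89.3. Atp5e, the epsilon subunit, stood at 98.5 and 94.9.

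**Figure D3:**
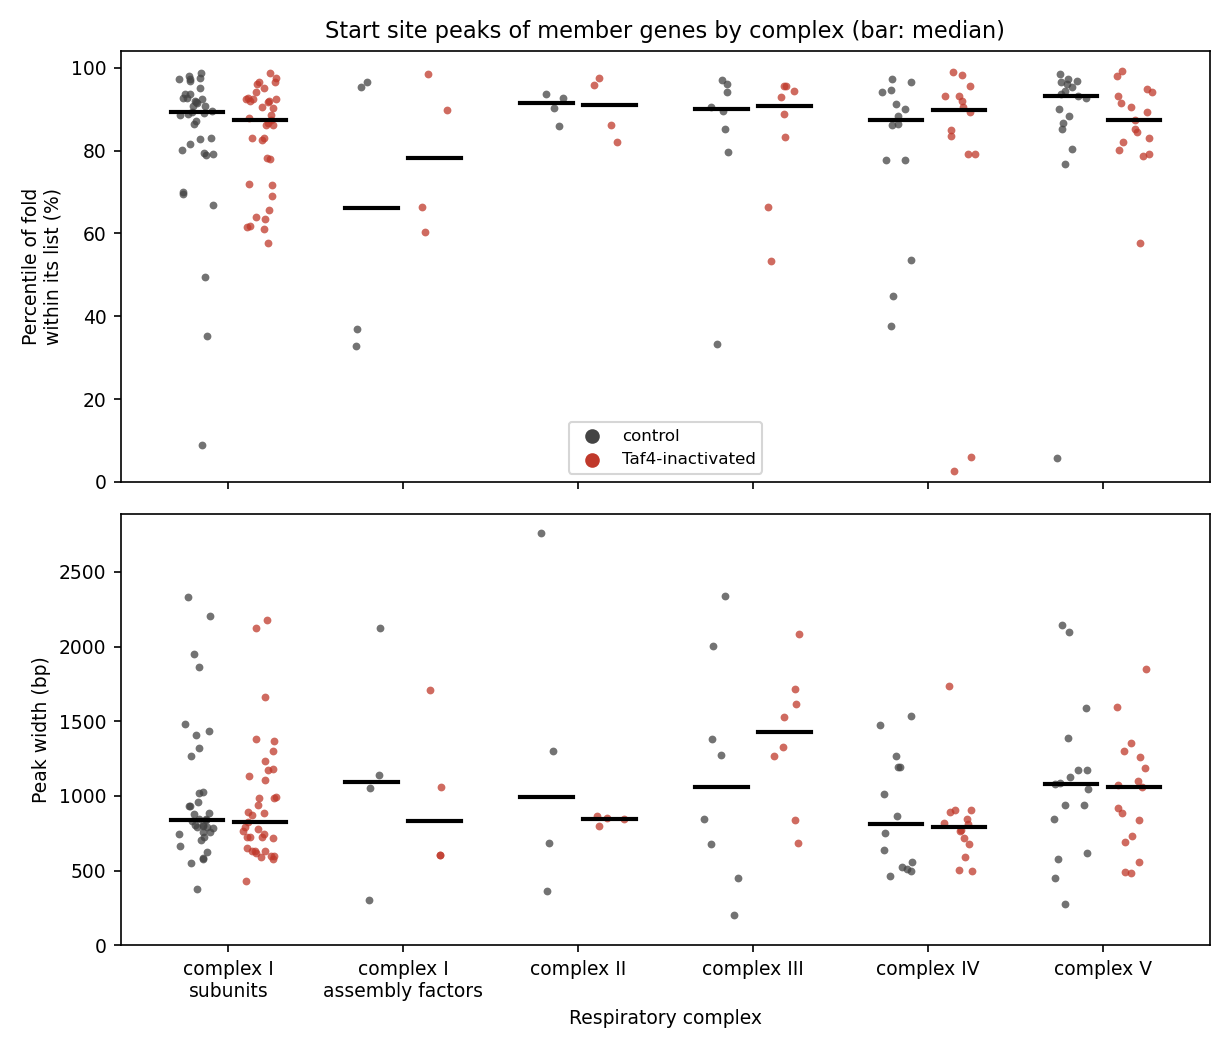
The upper panel shows the percentile of fold within its list (%) and the lower panel the width (bp) of the strongest start site peak of each member by complex, in control (dark) and Taf4-inactivated (red) enteroids, 1 point per gene and library, with bars at the medians. Medians of percentile lie between 87.3 and 93.2 in both lists except for the 4 complex I assembly factors, at 66.2 and 78.2, and the median width of complex III is 1058.5 bp in control and 1428.5 bp after Taf4 inactivation.

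Peak widths were similar in the 2 lists. The median was 882.5 bp in control and 857 bp after Taf4 inactivation, narrower than the 1049 and 980 bp of all coding genes, and the median ratio within members was 0.96, against 0.97 over all coding genes. At least 2 times wider after Taf4 inactivation were 4 members, or 4 of 83 against a background of 4.78%. At most 1/2 as wide were also 4, against a background of 9.15%. Width and percentile were nearly unrelated over members, with a Spearman rho of 0.144 over 84 genes in control and -0.15 over 84 in Taf4-inactivated enteroids.

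The width changes fell on few genes. Uqcr11 went from 200 bp, the narrowest control peak, to 1268 bp, a ratio of 6.34. Its control width of 200 bp was also the smallest among start site peaks of all coding genes, in either list. It equals the 200 bp extension set in peak calling. The ratio of 6.34 was thus taken against the lowest width seen. Ndufa9, a subunit at the junction of the complex I arms, went from 380 to 2128 bp, a ratio of 5.60. Ndufb4 (747 to 1663 bp) and Sdhc (367 to 796 bp) were the other wider ones. Sdhd had the widest control peak, 2759 bp (chr9:50410460-50413218), and a Taf4-inactivated peak of 864 bp (chr9:50411579-50412442), a ratio of 0.31, although its percentile was higher in the latter. Cox6b2 (ratio 0.34) and Ndufab1, the mitochondrial acyl carrier protein (0.43), were also among the narrower ones. Ndufb11, at a ratio of 0.50, lay just outside the limit.

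The other extremes were spread over the complexes. Uqcrh (2342 bp), Ndufa11 (2332 bp), Ndufb11 (2202 bp) and Atp5f1 (2147 bp), the b subunit of the side stalk, followed Sdhd in control. In Taf4-inactivated enteroids Ndufa13 (2180 bp), Ndufa9 (2128 bp) and Uqcrh (2086 bp) were the widest and Ndufa7 (430 bp) and Atp5j2 (484 bp) the narrowest. Complex III was the only group of subunits with a higher median width after Taf4 inactivation, 1428.5 against 1058.5 bp, and 5 of its 8 pairs were wider.

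Motifs of known regulators were counted in 300 bases around each start, from 250 before to 50 after, on both strands except for the TATA box. NRF1 (CGCANGCGC) matched 24.2% of member promoters, against 8.27% of all coding promoters and 12.4% of those with a peak in both lists. YY1 (AANATGGC) matched 20.9%, against 6.70% and 7.68%. SP1 (GGGCGG) matched 47.3%, against 44.0% and 62.5%, and NF-Y (CCAATNA) 22.0%, against 16.3% in both. ETS or GABPA (CCGGAAGT) matched 6.59%, ZNF143 or THAP11 (TACANNTCC) 8.79%, the cyclic AMP response element (TGACGTCA) 5.49% and ERR (TCAAGGTCA) 2.2%. Over all coding promoters these shares were 4.81%, 4.82%, 2.30% and 0.36%. In 76 mitochondrial ribosomal protein promoters NRF1 matched 18.4%, YY1 22.4%, SP1 48.7%, NF-Y 22.4% and ETS or GABPA 17.1%. ZNF143 or THAP11 matched 9.21% of them, the cyclic AMP response element 2.63% and ERR none. Only NRF1, the cyclic AMP response element and ERR were thus less frequent there than in the members. The TATA box (TATAAA, sense strand, 40 to 15 bases before the start) matched no member and 2.36% of all coding promoters. A match is a run of letters and not evidence of binding.

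**Figure D4:**
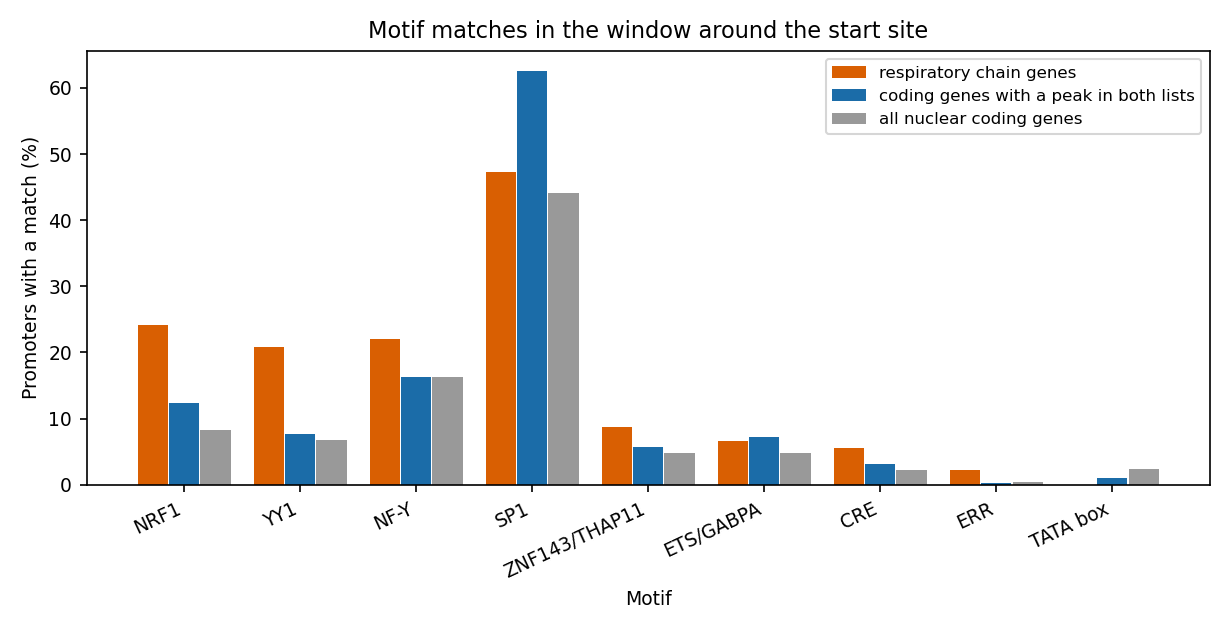
Bars give the percent of promoters with at least 1 match to each motif in the 300 bases around the start, for the 91 respiratory chain genes (orange), coding genes with a peak in both lists (blue) and all nuclear coding genes (grey). Member bars stand above both others for NRF1 (24.2%), YY1 (20.9%), NF-Y (22.0%), ZNF143 or THAP11 (8.79%), CRE (the cyclic AMP response element, 5.49%) and ERR (2.2%), and below the blue bar for SP1 (47.3%) and ETS or GABPA (6.59%).

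The motifs were spread unevenly over the complexes and along the promoter. YY1 matched 31.6% of complex I subunit promoters, among them Ndufb8, Ndufs4 and Ndufa9, but 1 of 19 in complex IV. NF-Y matched 44.4% of complex V promoters and NRF1 33.3%. No promoter of a restricted isoform held NRF1, whereas 4 of 8 held NF-Y and 4 of 8 SP1. Of the 20 YY1 matches 13 began at or after the start, where the bases shown above do not reach, and 47 of 75 SP1 matches lay in the last 100 bases before it. No motif contains another, although matches may share bases at their ends.

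Promoters of the restricted isoforms were poorer in CpG than the rest. Median GC content was 56.3% in the 83 other members and 53.2% in the 8 restricted isoforms. It was 60.7% over coding promoters with a peak in both lists. The ratio of observed to expected CpG was 0.83 in the other members and 0.38 in the restricted isoforms. It was 0.54 over all coding promoters and 0.74 over those with a peak in both lists. Among the members with a peak in both lists, those with NRF1 had a median percentile of 90.2 in control and 84.4 in Taf4-inactivated enteroids and those without 90.02 and 90.3, with median differences of 0.61 and -1.10 points. Those with YY1 had 86.3 and 82.2 and those without 91.0 and 89.6.

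Genes that work beside the respiratory chain were described in the same way. All 26 genes of a list of cytochrome c, cytochrome c1 and assembly factors found in the annotation had peaks in both lists, with medians of 93.6 and 91.6. Cycs (cytochrome c) stood at 99.0 and 99.7 and Cyc1 (cytochrome c1 of complex III) at 76.5 and 63.4. Cox19, a copper-delivery factor of complex IV, ranked higher by 48.7 points and Surf1, another assembly factor, by 26.3, while Atpaf1, an assembly factor of ATP synthase, differed by -21.4 points. By -log10 p these differences were 28.1, 7.55 and -20.5 points. The 13 citric acid cycle genes all had peaks, with medians of 95.6 and 84.7, but their median difference within genes was -2.80 points, near the -2.77 of all coding genes.

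Regulators of respiratory genes also all had peaks. Over 14 genes the medians were 92.1 in control and 84.2 in Taf4-inactivated enteroids, and 11 (78.6%) were lower by fold and 10 (71.4%) by -log10 p, against 65.8% and 68.0% of all coding genes. Nrf1, whose product binds the motif above, stood at 97.7 and 96.4, Yy1 at 92.5 and 72.3 and Tfam, the packaging and transcription factor of mitochondrial DNA, at 95.8 and 85.1. Polrmt, the mitochondrial RNA polymerase, ranked higher by 22.7 points. By -log10 p the differences of Yy1 and Polrmt were -8.89 and 10.8 points, under the limit of 20. The mitochondrial genome held 2 peaks in each list, of low fold (1.60 and 1.79 in control, 1.59 and 1.78 in Taf4-inactivated enteroids), so the 13 genes encoded there cannot be ranked one by one.

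Other housekeeping groups had similar medians. Of 76 mitochondrial ribosomal protein genes 75 had a peak in control and 76 in Taf4-inactivated enteroids, with medians of 88.4 and 87.1. The 82 cytosolic ribosomal protein genes had 79 and 80 peaks and medians of 88.3 and 87.8, and the 50 proteasome genes 47 and 48 peaks and medians of 92.2 and 90.4. The median difference was 0.16 points for mitochondrial ribosomal, 0.63 for cytosolic ribosomal and -1.55 for proteasome genes. The value of the respiratory chain genes, -0.11, lay within this range. Counts of rank changes of 20 points differed more. Higher were 8 of 75 mitochondrial ribosomal, 15 of 79 cytosolic ribosomal and 2 of 47 proteasome pairs, against a background of 7.86%. In each of these groups 2 pairs were lower, against a background of 12.3%. Of the 83 member pairs 8 were higher and 5 lower.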

How the data were processed

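ATAC-seq was performed on 1 control and 1 Taf4-inactivated enteroid library, grouped by the genotype label. Per the labels and the methods, the authors demultiplexed with bcl2fastq 2.17.1.14, aligned uniquely mapping reads to mm9 with Bowtie 1.0.0 and called broad peaks in each library with MACS2 2.1.1, without a model and with a 200 bp extension. Duplicate handling was not given in the sources used here. The deposited score is 10 times the −log10 q and was not used for ranks. The deposited fold (a ratio to the background of the library), −log10 p and −log10 q are the authors' averages over each peak. Total read counts were not used here.

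Start sites of all transcripts of coding genes were taken from GENCODE M1 (NCBIM37, the same build as mm9), with genes sharing symbol and chromosome merged. Sdh was read as the subunits a to d. A gene had a start site peak when a peak lay within 1 kb of any of its starts, and the one of highest fold was used. The background under a peak was solved from its fold and Poisson p. The lowest background was 12.1 in control and 7.36 in Taf4-inactivated enteroids. Start site matching and the background solution were run on simulated data. The simulated folds and p came from the same formula that was then solved, at single points. Their recovery therefore checks the code, and not how well the formula holds for values averaged over broad peaks or for the depth estimate. Python 3.11.15, numpy 2.4.6, pandas 2.3.3, scipy 1.17.1 and matplotlib 3.10.9 were used. No p-value was computed, since there was 1 library per genotype.

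Members, gene lists, motifs and thresholds were chosen with earlier results of these data known. Named genes were members lacking a peak, the 5 extremes of rank, rank difference and width, the restricted isoforms and a fixed panel of 20 genes. Other members, such as Ndufaf2, Atp5g2, Atp5g3, Ndufb4, Ndufab1 and Ndufs6, were named after their values were seen, to complete a small count or family, and genes of the other lists as examples by role. 1 member is counted in all totals but not reported by name or drawn in the plot of peak extents here. Current names came from a RefSeq table. Alternatives changed the distance, the starts used, the peak chosen, the ranking value, the peaks ranked, the q threshold, the list length and the members with an opposite start.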

Additional observations from a re-analysis of the deposited data

How the results depend on the processing

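The counts of members with a start site peak held under every alternative tried for them, within 1.5 times. At a −log10 q of at least 2, again 1 member was called in control only and 1 in Taf4-inactivated enteroids only, but the genes were others. Cox7b and Cox4i2 then had no peak in either list. Cox6b2 was called in control only (−log10 q 2.09 in control, 1.22 after Taf4 inactivation) and Ndufaf1 after Taf4 inactivation only (1.38 and 2.73). Median percentiles, the median difference and small counts moved under some of them. Within 5 kb, 0 members were called in control only and 0 in Taf4-inactivated enteroids only, the median difference was 0.25 points and 7 members were narrower. With lists of equal length 2 members were called after Taf4 inactivation only and the median difference was 2.25 points. Ranking by width gave medians of 70.4 and 72.9 and a difference of 2.12 points, and ranking among start site peaks gave 67.5, 70.1 and 4.16 points with 9 members lower. Without members that share an opposite start, the difference was 0.81 points, the median log2 width ratio 0.039 against -0.061, and 3 members ranked lower. Ranking by −log10 p gave 2 higher and 3 lower, and both measures together, added after the data had been seen, 2 higher and 2 lower. The sign of the median difference is therefore not settled, while its size stayed under 5 points in each of these. The 13 members with a rank change were recomputed by −log10 p and among start site peaks only, and of these Uqcr11 turned sign, to -4.12 points by −log10 p. The cause of these shifts was not tested. No paired analysis was possible because each genotype had 1 library, which also meant that none could be left out. At the shallower depth after Taf4 inactivation, an uncalled peak does not show closed chromatin.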
